A study of Mus musculus with 88 samples.

Results

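The injured cortex and the cortex of the opposite hemisphere were compared within the same mouse 72 h after a controlled cortical impact, a contusion made by driving a metal tip into the exposed brain. The comparison holds the ipsilateral and the contralateral library of 13 animals (7 females and 6 males), which is 26 of the 88 libraries in the series. They are all animals labelled as injured and sampled at 72 h except 3 of the 16. LF3 was left out for the low depth and high mitochondrial share of its libraries, PF1 because its sex transcripts go against its label, and PM1 because the label of its ipsilateral library contradicts itself. The mice were C57BL/6 males and females of 8 to 9 weeks. Under isoflurane, each injured mouse had the right somatosensory cortex exposed by a craniotomy of 3 mm and received an impact with a 2 mm tip (6.0 m/s, 1 mm depth, 100 ms) and buprenorphine at 0.05 mg/kg. Animals were perfused, and a 4 mm punch centred on the injury (ipsilateral) and the matching punch of the other hemisphere (contralateral) were taken for polyadenylated RNA sequencing. For comparison, 15 pairs of punches came from mice injured 24 h earlier, and 13 pairs came from naive mice, in which the right punch is labelled ipsilateral. No library compared here is labelled as craniotomy without impact, so effects of the impact and of the craniotomy on the ipsilateral side cannot be told apart. The contralateral punch shared the anaesthesia, the drug and the circulation of its partner and is not uninjured tissue of a naive mouse.

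A contusion kills tissue at its centre, opens the blood-brain barrier and lets plasma, red cells and leukocytes into the cortex. In the days that follow, astrocytes at the border turn reactive and raise intermediate filaments, microglia and blood-derived macrophages clear myelin, lipid and iron, and oligodendrocyte precursors, microglia and vascular cells divide. Neurons near the lesion lose synapses and lower the transcripts of their excitability. A punch of whole tissue mixes all of these cells. In such bulk RNA, fewer cells of a type and less RNA per cell cannot be told apart.

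Library depth was 15135297 to 24731022 counts ipsilaterally (median 15958265) and 15063379 to 21711951 counts contralaterally (median 16103864). Mitochondrial genes held 2.821 to 3.759% of ipsilateral counts (median 3.157) and 2.8 to 4.056% of contralateral counts (median 3.825). Transcripts of the sex chromosomes matched the labelled sex in all 26 libraries. The contralateral library of LM2 stood farthest from the others of its side, with a root mean square log2 difference of 0.547 from the side's median, against 0.127 to 0.212 for the other contralateral libraries. Its genes with the longest exon sequence lay 0.12 log2 units under the side's median and those with the shortest 0.295 above it. The corresponding values of the ipsilateral library of LM2 were -0.11 and 0.16. Ipsilateral libraries lay between 0.142 (PF2) and 0.343 (TM2) from their side's median. Without the pairs LM2 and SF3 the comparison called 12591 genes, and no called gene named below changed direction.

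Of 16924 genes tested at 72 h, 12505 (73.9%) differed between the hemispheres at an adjusted p under 0.05 (edgeR quasi-likelihood test with the animal as a block, Benjamini-Hochberg adjustment, two-sided). Of these, 6546 (38.7%) were higher and 5959 (35.2%) were lower in the injured punch. Which direction held more calls changed with the scaling of the libraries and with LM2 left out. The median log2 fold change, ipsilateral over contralateral, was 0.01 over all genes tested, and the median standard error was 0.070. Among genes past 2-fold, 2212 genes were higher (13.1%) and 506 were lower (2.99%), and over 4-fold 949 were higher and 30 lower. In 7392 called genes, 59.1% of those called, all 13 pairs changed in the same direction. For 4416 genes (26.1%) the ipsilateral and contralateral libraries did not overlap. Since most genes pass this test, the sizes of the changes and the counts past 2-fold carry more information below than the calls alone. The shares of 38.7% higher and 35.2% lower are the background for the counts of each list. The lists were chosen with earlier results of these data known, so their counts are descriptions and were not tested against these shares. Throughout, levels are in CPM, the counts of a gene relative to the scaled library total. They are given as the lowest to the highest of the 13 libraries of a side with their median. A value followed by ± is a log2 fold change with its standard error, ipsilateral over contralateral unless a difference between groups is named. Each standard error is the size of the change divided by the square root of the test's F statistic. It is approximate and can be too small for genes with few counts on a side.

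**Figure D1:**
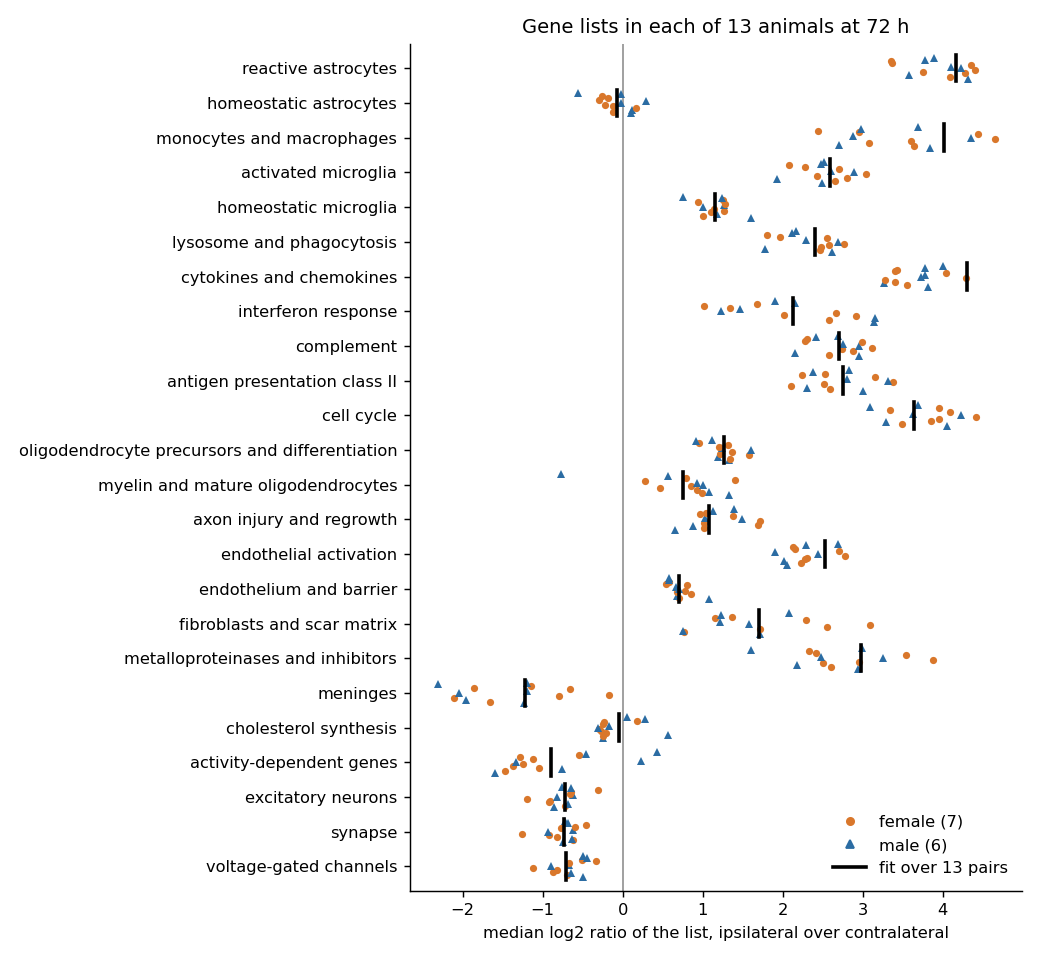
Median log2 ratio (ipsilateral over contralateral) of the members of 24 gene lists in each of the 13 pairs at 72 h. Each point is an animal (circles females, triangles males), the bar is the median of the fitted values over the 13 pairs and the grey line at 0 marks equal levels. Pair ratios add a prior count of 2, which draws those of low genes toward 0. Reactive astrocytes lie between 3.35 and 4.40 in every pair and synaptic genes between -1.26 and -0.45, while the myelin list spans -0.77 to 1.40.

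Transcripts of reactive astrocytes were higher in every injured punch. All 14 measured members rose, all 14 by over 2-fold and all without overlap between the sides, with a list median of 4.17 against 0.01 over all genes. Gfap, which builds the intermediate filaments of astrocytes (chromosome 11, 102887336 to 102900912, GRCm38), was at 2179 to 4254 CPM (median 3043) ipsilaterally, against 108 to 509 CPM (median 210.3) contralaterally. The highest contralateral values, those of PM2 and TF2, were well below the lowest ipsilateral one, so the sides did not overlap. The log2 fold change was 3.86 ± 0.17 (adjusted p = 1.25e-12), and the pair ratios were 2.44 to 4.68. Vim, another filament protein of reactive glia, stood at 844 to 2001 CPM (median 1318) ipsilaterally, against 35.00 to 67.3 CPM (median 47.3) contralaterally (4.79 ± 0.13, adjusted p = 4.30e-15). Serpina3n, a secreted protease inhibitor, had a log2 fold change of 4.98 ± 0.13, the hyaluronan receptor Cd44 of 4.78 ± 0.15 and the membrane protein Cd109 of 4.00 ± 0.10. Transcripts of the resting functions of astrocytes did not move together. Of 12 measured, 3 rose, 5 fell and 4 were not called, with a median of -0.06. With 38.7% of all genes tested higher and 35.2% lower, these counts lie near the background and are only described. The glutamate transporter Slc1a2 was at 1217 to 2027 CPM (median 1553) ipsilaterally and 2552 to 3302 CPM (median 2970.5) contralaterally, lower in all 13 pairs (-0.98 ± 0.07, adjusted p = 4.12e-10). Glutamine synthetase (Glul) and the connexin Gjb6 were also lower, at -0.44 ± 0.06 and -0.58 ± 0.05. The folate enzyme Aldh1l1, by contrast, was at 128 to 208 CPM (median 149.6) ipsilaterally and 63.5 to 101 CPM (median 73.4) contralaterally (0.98 ± 0.06), and the potassium channel Kcnj10 rose by 0.97 ± 0.06. Gja1, the main connexin of astrocytes, rose by 0.23 ± 0.10 (adjusted p = 0.0402), was higher in 10 of 13 pairs, and overlapped between the sides. The call was lost when any of LM2, PF2, PM2, SF1, SF2, SF3, SM1, SM2 or TF1 was left out (adjusted p = 0.0588 to 0.153), and batch C alone gave 0.13.

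Macrophage transcripts made up some of the largest rises. Of 14 monocyte and macrophage genes 13 rose, all by over 2-fold, and 12 did so without overlap, with a median of 4.02. Arg1, arginase of wound macrophages, was at 14.7 to 174 CPM (median 54.2) in injured punches and at 0 to 0.57 CPM (median 0.189) in contralateral punches. The sides did not overlap, and the log2 fold change was 8.17 ± 0.19 (adjusted p = 1.18e-15). Msr1, a scavenger receptor, had 23.9 to 87.8 CPM (median 50.6) ipsilaterally and 0.0659 to 1.46 CPM (median 0.358) contralaterally (6.57 ± 0.25). Cd68, a lysosomal glycoprotein of phagocytes, had 67.1 to 202 CPM (median 149) ipsilaterally and 7.97 to 15.1 CPM (median 11.3) contralaterally (3.62 ± 0.12). The monocyte chemokine receptor Ccr2 rose by 4.25 ± 0.22. Mrc1, the mannose receptor of perivascular macrophages, rose by 1.05 ± 0.18, and Cd163, the hemoglobin scavenger receptor of the same cells, was not called, at -0.17 ± 0.15 (adjusted p = 0.31). The summed level of the 14 genes was 793 to 2980 CPM ipsilaterally and 106 to 205 CPM contralaterally, highest in SF3 on both sides.

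Microglial transcripts rose to different degrees. Of 15 genes of activated microglia all 15 rose, 13 by over 2-fold, with a median of 2.59. Spp1, osteopontin, was at 773 to 2802 CPM (median 998) ipsilaterally and 5.08 to 37.1 CPM (median 12.9) contralaterally, a log2 fold change of 6.54 ± 0.23 (adjusted p = 9.46e-14). Lgals3, a galectin of phagocytes, was at 39.6 to 149.8 CPM (median 98.6) ipsilaterally and 0.298 to 2.72 CPM (median 0.791) contralaterally (6.64 ± 0.18). Trem2, a lipid-sensing receptor of microglia, rose by 2.26 ± 0.08, the tetraspanin Cd9 by 2.59 ± 0.06 and the apolipoprotein Apoe by 0.50 ± 0.13. Apoe is also an astrocyte transcript, and its sides overlapped. With the pairs LF3 and PF1 kept, Apoe lay at 0.33 and was not called (adjusted p = 0.0661). Of 12 genes of resting microglia 11 rose, 7 by over 2-fold, with a median of 1.15. The receptor-like gene Fcrls was at 233 to 435 CPM (median 353) ipsilaterally and 33.3 to 55.2 CPM (median 42.6) contralaterally (3.00 ± 0.08, adjusted p = 5.57e-15). Csf1r, the receptor for the microglial survival factor, rose by 1.52 ± 0.05 and Tmem119, a microglial membrane protein, by 1.11 ± 0.06. The purinergic receptor P2ry12, which marks surveying microglia, rose by 0.30 ± 0.07 (adjusted p = 0.000793) with overlapping sides. The lectin Siglech was not called, at -0.15 ± 0.10 (adjusted p = 0.19), and was higher in 5 of 13 pairs. In batch C alone it was called, at -0.28 (adjusted p = 0.0208).

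Genes of the lysosome and phagocytosis all rose, 15 of 15, of which 12 by over 2-fold and 14 without overlap (median 2.41). Ctsd, the lysosomal protease cathepsin D, was at 1049 to 2487 CPM (median 1749.5) ipsilaterally and 211 to 323 CPM (median 239.8) contralaterally (2.87 ± 0.10, adjusted p = 1.09e-13). Fcgr3, an activating immunoglobulin receptor, was at 50.5 to 91.7 CPM (median 66.2) ipsilaterally and 9.44 to 12.6 CPM (median 10.6) contralaterally (2.66 ± 0.06). Its inhibitory counterpart Fcgr2b rose by 3.18 ± 0.08, and the lysosomal membrane protein Lamp1 rose by 0.86 ± 0.06. Cholesterol efflux and lipid droplet genes followed: 11 of 12 rose, 6 by over 2-fold, with a median of 1.01. Plin2, which coats lipid droplets, was at 73.9 to 259 CPM (median 170.0) ipsilaterally and 4.96 to 9.69 CPM (median 5.91) contralaterally, a log2 fold change of 4.68 ± 0.17. Ch25h, cholesterol 25-hydroxylase, rose by 5.67 ± 0.14 and the efflux pump Abca1 by 2.43 ± 0.09. Plin4, a droplet protein of fat cells, was not called (0.17 ± 0.17). The cholesterol synthesis genes did not share this direction. Of 15 measured, 1 rose, 7 fell and 7 were not called, with a median of -0.04 and no change over 2-fold. Srebf2, a transcription factor that drives the synthesis genes, was at 150.1 to 287 CPM (median 218) ipsilaterally and 263 to 316 CPM (median 277) contralaterally (-0.43 ± 0.06, adjusted p = 3.40e-06), and Insig1, a sterol-sensing brake on the pathway, was lower by 0.32 ± 0.08. Insig1 lay at -0.17 and was not called in batch B alone (adjusted p = 0.471).

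Heme and iron genes rose for 12 of 13 measured, 8 by over 2-fold (median 1.12). Hmox1, heme oxygenase 1, which degrades heme, was at 261 to 1015 CPM (median 609) in injured punches and 4.07 to 14.1 CPM (median 5.80) in contralateral punches. The sides did not overlap, at 6.54 ± 0.21 (adjusted p = 3.21e-14). Ftl1, the ferritin light chain, was at 429 to 1114 CPM (median 817) ipsilaterally and 92.01 to 136 CPM (median 98.7) contralaterally (2.89 ± 0.12), and several ferritin pseudogenes could share its reads. The transferrin receptor Tfrc, which takes up iron, fell by 0.43 ± 0.09 and lay at 78.6 to 113 CPM (median 97.4) ipsilaterally and 59.7 to 161 CPM (median 139) contralaterally. The contralateral minimum is that of LM2, the only pair in which Tfrc was higher ipsilaterally. Batch B alone, which includes LM2, gave -0.14 for Tfrc, which was not called there (adjusted p = 0.697). Red cell transcripts were higher in 12 of 13 pairs for Hbb-bs, an adult beta globin, which was at 34.4 to 224 CPM (median 64.3) ipsilaterally and 5.34 to 96.7 CPM (median 18.03) contralaterally (1.91 ± 0.28). All 5 red cell genes rose, each with overlapping sides. Their summed level was 75.6 to 509 CPM ipsilaterally and 10.7 to 201 CPM contralaterally, and the highest contralateral value was that of TF2. The alpha globins Hba-a1 and Hba-a2 are nearly identical copies, so the split of reads between them is uncertain. The part of blood left after perfusion in other results was not tested.

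Several cytokine and chemokine transcripts were at or near 0 contralaterally and present in injured punches. Of 18 listed, 14 passed the filter on low counts and 4 did not. A gene near 0 on the contralateral side can pass that filter through its ipsilateral level alone, so the number of rises among members that passed it, here 14, is given as a description, and the same holds for the other lists with untested members. Ccl2, the main monocyte attractant, was at 7.69 to 17.3 CPM (median 11.1) ipsilaterally and 0 to 0.264 CPM (median 0.0653) contralaterally (6.71 ± 0.19, adjusted p = 8.37e-15). Csf1, a growth factor of microglia and macrophages, was at 65.1 to 119 CPM (median 89.4) ipsilaterally and 18.7 to 25.3 CPM (median 21.6) contralaterally (2.02 ± 0.07). Ccl12, a chemokine related to Ccl2, rose by 4.46 ± 0.16, the interferon-induced Cxcl10 by 4.02 ± 0.27, the cytokine Il1b by 3.06 ± 0.31 and Tnf by 4.35 ± 0.26. Il6, Ccl5, Cxcl1 and Cxcl2 were too low to test. Cxcl2, a neutrophil attractant, had 71 counts over the 13 ipsilateral libraries and none contralaterally, at least 23.6-fold higher against a floor of 3 counts over the contralateral group. The floor covers counting error only. Neutrophil genes were mostly near the limit of detection. Of 12 listed, 5 passed the filter, in part through their ipsilateral levels, and these are described by their values. S100a8, a calprotectin subunit, was at 0.253 to 9.84 CPM (median 2.09) ipsilaterally and 0 to 0.801 CPM (median 0.319) contralaterally, overlapping between the sides (3.11 ± 0.34). The granulocyte receptor Csf3r, which microglia can also carry, rose by 1.81 ± 0.08. Among the 7 that did not pass, Cxcr2, a chemokine receptor of neutrophils, had 280 counts over the ipsilateral and 9 over the contralateral libraries. The granule genes Ngp, Ltf, Camp and Mpo had 171, 166, 55 and 44 counts over the ipsilateral and 58, 36, 15 and 23 over the contralateral libraries, and Retnlg, a secreted protein of neutrophils, had 262 over the ipsilateral and 25 over the contralateral libraries. All 6 had more counts ipsilaterally, with no test. Ly6g, the defining neutrophil surface gene, had 5 counts in all ipsilateral and 2 in all contralateral libraries. Of 12 lymphocyte genes only Cd4 could be tested, at 0.176 to 1.92 CPM (median 0.759) ipsilaterally and 0.446 to 1.02 CPM (median 0.801) contralaterally, and it was not called (-0.01 ± 0.21, adjusted p = 0.954). The T-cell receptor component Cd3e had 31 ipsilateral and 19 contralateral counts.

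All 16 interferon response genes rose by over 2-fold, 13 of them without overlap, with a median of 2.13. Ifitm3, a membrane protein that blocks virus entry, had the smallest p of the list, at 41.5 to 99.8 CPM (median 61.7) ipsilaterally and 7.64 to 12.00 CPM (median 8.88) contralaterally (2.80 ± 0.10, adjusted p = 6.88e-14). Bst2, tetherin, was at 19.9 to 51.8 CPM (median 26.4) ipsilaterally and 2.27 to 4.88 CPM (median 3.32) contralaterally (3.10 ± 0.14). The oligoadenylate synthetase Oas1a rose by 3.23 ± 0.16 and Ifit1, a sensor of viral RNA, by 2.12 ± 0.23. The list was uneven between animals: its median pair ratio was 3.16 in PM2 and 1.02 in TF2, whose contralateral punch had the highest summed level of the side (96.7 CPM, against 53.8 CPM in the lowest). Over batch C (10 pairs) the median was 1.85 and over batch B (3 pairs) 3.02. Interferon-stimulated genes are known for response elements of interferon regulatory factors near their start. The motif GAAA, any 2 bases, GAAA, searched on both strands, was in 61.5% of the 13 RefSeq promoter windows found for the list (8 of 12 genes with a window), against 3.44% of all 32851 windows of the same length. The window of Ifitm3, shown because it is the called member with the smallest p that holds the motif, spans chr7:141010695-141010994 on the minus strand of GRCm38.p6, 250 bases before to 50 after the start, with the 2 matches in capitals.
Ifitm3: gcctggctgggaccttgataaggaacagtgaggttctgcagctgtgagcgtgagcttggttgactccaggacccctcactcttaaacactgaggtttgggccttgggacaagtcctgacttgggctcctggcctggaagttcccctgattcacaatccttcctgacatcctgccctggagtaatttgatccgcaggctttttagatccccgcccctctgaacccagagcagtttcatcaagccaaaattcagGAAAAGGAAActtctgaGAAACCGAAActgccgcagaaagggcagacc
A match describes these letters and is not a measured binding site.

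Complement and antigen presentation genes also rose. Of 12 complement genes 11 rose, 10 by over 2-fold (median 2.71). C1qb, a chain of the recognition component, was at 259 to 531 CPM (median 341) ipsilaterally and 43.8 to 73.98 CPM (median 52.7) contralaterally (2.73 ± 0.08, adjusted p = 8.11e-15). The anaphylatoxin receptors C3ar1 and C5ar1 rose by 4.52 ± 0.12 and 4.52 ± 0.11. C2, a protease of the classical pathway, was lower by 0.52 ± 0.18 (adjusted p = 0.0147) at 0.421 to 1.70 CPM (median 0.954) ipsilaterally and 0.601 to 1.75 CPM (median 1.13) contralaterally. Batch C alone gave -0.44 for C2, which was not called there (adjusted p = 0.066). Among class I genes 9 of 10 rose, all 9 by over 2-fold (median 1.93). The heavy chain H2-K1 was at 77.5 to 193 CPM (median 109) ipsilaterally and 23.2 to 44.5 CPM (median 29.7) contralaterally (2.00 ± 0.09), and reads of near-identical class I genes may be split between them. B2m, the shared light chain, rose by 1.63 ± 0.08 and the peptide transporter Tap1 by 2.38 ± 0.11. All 8 class II genes rose (median 2.75). Cd74, the invariant chain, was at 23.96 to 78.4 CPM (median 39.4) ipsilaterally and 1.86 to 5.81 CPM (median 4.02) contralaterally (3.39 ± 0.15), and the chains H2-Ab1 and H2-Eb1 rose by 3.90 ± 0.17 and 3.41 ± 0.16.

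Cell cycle transcripts were higher in each injured punch than in any contralateral punch. All 15 measured members rose by over 2-fold without overlap, with a median of 3.64. Ccna2, cyclin A2, had the smallest p of all lists, at 22.9 to 44.8 CPM (median 35.1) ipsilaterally and 1.89 to 3.99 CPM (median 3.04) contralaterally (3.42 ± 0.07, adjusted p = 6.21e-16). Rrm2, the ribonucleotide reductase subunit of S phase, was at 29.2 to 78.3 CPM (median 53.8) ipsilaterally and 1.73 to 2.95 CPM (median 2.15) contralaterally (4.49 ± 0.13). Mki67, the proliferation antigen, rose by 4.71 ± 0.16 and the mitotic cyclin Ccnb2 by 3.21 ± 0.10. The mitotic genes are known for a CCAAT box together with the cell cycle homology region TTTGAA near their start. Both motifs, searched on either strand, stood together in 58.3% of the 12 RefSeq windows found for the list, against 6.95% of all windows. The window of Ccnb2, the list's called member with the smallest p that holds both, spans chr9:70421505-70421804 on the minus strand of GRCm38.p6. Its 5 matches, none of which overlaps another, are in capitals.
Ccnb2: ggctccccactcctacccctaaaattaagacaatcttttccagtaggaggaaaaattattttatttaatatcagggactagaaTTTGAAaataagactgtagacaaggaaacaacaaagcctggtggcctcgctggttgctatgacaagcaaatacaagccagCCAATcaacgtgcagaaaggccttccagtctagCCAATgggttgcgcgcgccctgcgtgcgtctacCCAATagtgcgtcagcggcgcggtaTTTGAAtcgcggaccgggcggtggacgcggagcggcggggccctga
Genes of neural progenitors and Notch signalling rose for 11 of 12 (7 by over 2-fold, median 1.32). Tnc, tenascin C, was at 95.4 to 325 CPM (median 174) ipsilaterally and 2.70 to 10.2 CPM (median 4.40) contralaterally (5.37 ± 0.14). Nes, the filament protein nestin, was at 191 to 337 CPM (median 245) ipsilaterally and 9.76 to 24.2 CPM (median 13.5) contralaterally (4.10 ± 0.12), and Fabp7, a fatty acid binding protein of radial glia, rose by 2.96 ± 0.11. Hes5, a Notch target in astrocytes and progenitors, went the other way at 1.70 to 3.80 CPM (median 2.32) ipsilaterally and 4.74 to 10.9 CPM (median 7.19) contralaterally (-1.58 ± 0.10), lower in all 13 pairs.

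**Figure D2:**
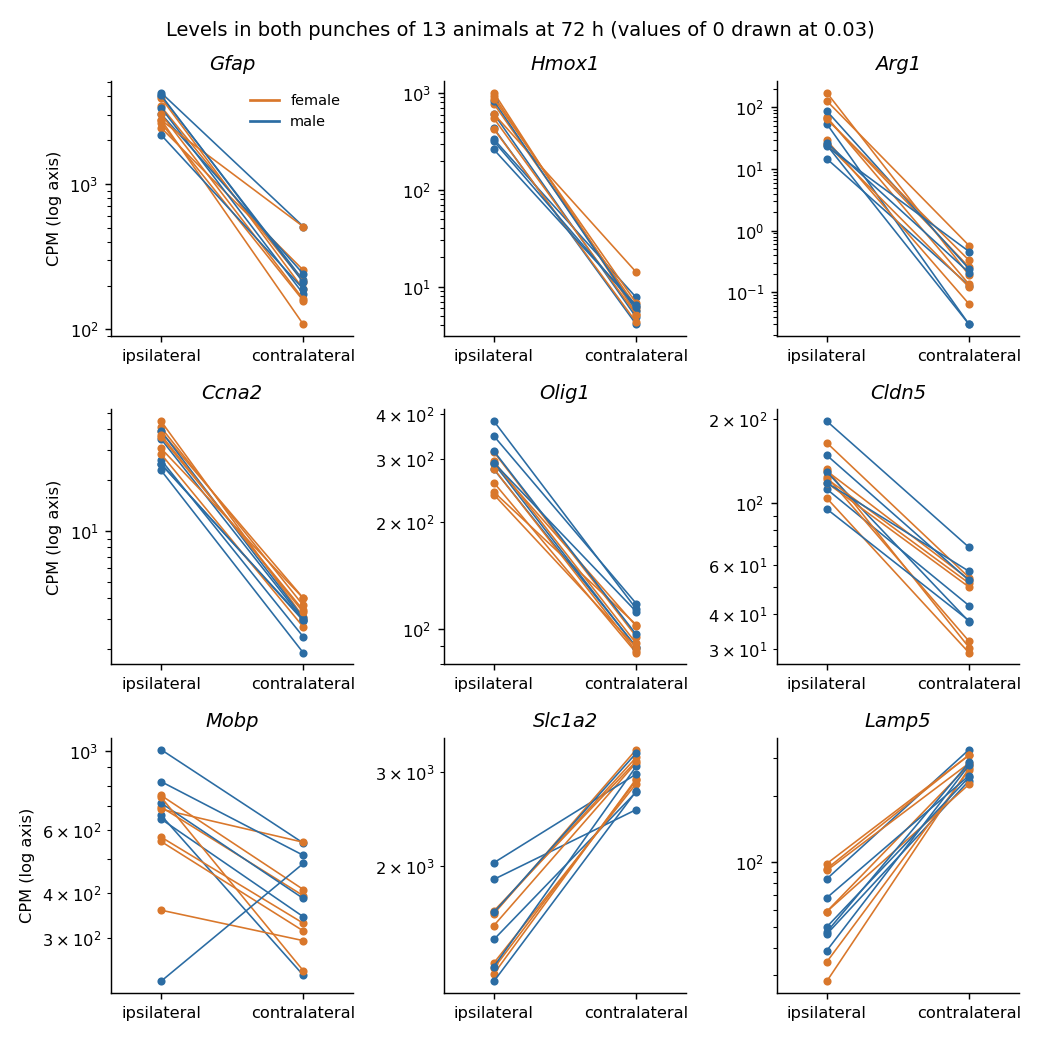
Levels of 9 genes in the ipsilateral (left) and contralateral (right) punch of each of the 13 animals at 72 h, in CPM on a log axis. A line joins the punches of an animal (orange females, blue males). Gfap, Hmox1, Arg1, Ccna2, Olig1 and Cldn5 were higher ipsilaterally in every pair, Slc1a2 and Lamp5 were lower in every pair, and Mobp was higher in 12 of 13.

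Oligodendrocyte precursor genes rose together. All 12 measured members rose, 9 by over 2-fold and 9 without overlap (median 1.27). Olig1, a transcription factor of the whole lineage, was at 238 to 382 CPM (median 291) ipsilaterally and 85.9 to 118 CPM (median 95.4) contralaterally (1.58 ± 0.05, adjusted p = 7.96e-15). Olig2 and Sox10, lineage factors as well, rose by 1.51 ± 0.05 and 1.28 ± 0.06. The precursor genes Cspg4, a surface proteoglycan, and Pdgfra, a growth factor receptor, rose by 1.32 ± 0.07 and 0.78 ± 0.05. Genes of compact myelin and mature oligodendrocytes were higher for 11 of 12, though only 3 passed 2-fold and 11 of the 12 overlapped between the sides (median 0.75). Mag, a glycoprotein of the inner myelin layer, was at 107 to 357 CPM (median 243) ipsilaterally and 68.3 to 153 CPM (median 97.1) contralaterally (1.11 ± 0.12). Mobp, a protein of compact myelin, was at 227 to 1012 CPM (median 688) ipsilaterally and 236 to 556 CPM (median 387) contralaterally (0.73 ± 0.16). Cldn11, the claudin of myelin, was higher in all 13 pairs (1.61 ± 0.13). In TM2 the list ran the other way, with a median pair ratio of -0.77, against 1.40 in TF2. In naive animals the same list had a median side difference of 0.26, the largest of the lists that could be tested in full, and none of its members was called there.

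Neuronal transcripts were lower by modest amounts. Of 12 excitatory neuron genes 11 fell, of 12 inhibitory neuron genes 11 fell, and none of either rose. The medians were -0.72 and -0.61. Camk2a, a kinase of excitatory synapses, was at 1449 to 2426 CPM (median 2174) ipsilaterally and 3383 to 4275 CPM (median 3878) contralaterally, without overlap (-0.91 ± 0.07, adjusted p = 8.57e-10). Lamp5, a transcript of upper layer neurons and of an interneuron class, was at 28.1 to 97.8 CPM (median 58.8) ipsilaterally and 227 to 328 CPM (median 278) contralaterally (-2.25 ± 0.13). The layer 5 factor Fezf2 was lower by 0.89 ± 0.07, and Foxp2, a layer 6 gene, was not called (0.06 ± 0.13). Vip, the peptide of a class of interneurons, was at 9.35 to 27.05 CPM (median 16.99) ipsilaterally and 43.5 to 60.7 CPM (median 52.3) contralaterally (-1.71 ± 0.12), and Gad1, the enzyme that makes the transmitter GABA, was lower by 0.76 ± 0.10. The vesicular glutamate transporter Slc17a7 fell by 0.22 ± 0.07, the calcium buffer Pvalb by 0.39 ± 0.07 and the peptide Sst by 0.59 ± 0.09. Npy, another peptide of interneurons, was not called, at -0.07 ± 0.16 (adjusted p = 0.712).

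Synaptic genes fell for 13 of 14 measured members, 4 by over 2-fold (median -0.73), and Gria1, an AMPA receptor subunit, was not called (-0.02 ± 0.09, adjusted p = 0.835). Shank1, a postsynaptic scaffold, was at 291 to 452 CPM (median 375) ipsilaterally and 694 to 849 CPM (median 802) contralaterally (-1.05 ± 0.05). Homer1, another scaffold, was at 68.3 to 259 CPM (median 114) ipsilaterally and 212 to 497 CPM (median 319) contralaterally, lower in all 13 pairs (-1.43 ± 0.07, adjusted p = 3.48e-12). The syntaxin Stx1a was lower by 1.39 ± 0.08 and its fusion partner Snap25 by 0.97 ± 0.07. Of 12 voltage-gated channel genes 10 fell (median -0.70). Kcnv1, a modifier of potassium channels, was at 21.2 to 58.9 CPM (median 40.97) ipsilaterally and 114 to 167 CPM (median 143) contralaterally (-1.88 ± 0.10), and the sodium channel Scn8a was lower by 0.72 ± 0.06. Kcna1, a potassium channel of axons, was not called, at -0.11 ± 0.07. Without TF2, Kcna1 was called, at -0.17 (adjusted p = 0.00426). SF3 had the strongest decrease of the excitatory, inhibitory, synaptic and channel lists, with median pair ratios of -1.19, -1.16, -1.26 and -1.11.

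Activity-dependent genes, which neurons induce within minutes of firing, were mostly lower. Of 12 measured 7 fell, 5 by over 2-fold, and 2 rose (median -0.89), and every member overlapped between the sides. Egr1, a transcription factor, was at 49.1 to 382 CPM (median 99.6) ipsilaterally and 165 to 840.5 CPM (median 342) contralaterally, yet lower within all 13 pairs (-1.48 ± 0.13, adjusted p = 1.40e-08). Nr4a1, a nuclear receptor, was at 14.8 to 186 CPM (median 23.00) ipsilaterally and 52.8 to 417 CPM (median 77.9) contralaterally and was also lower in all 13 pairs (-1.74 ± 0.16). Levels differed widely between animals. The summed level of the list was highest on both sides in TM1, at 2380 CPM ipsilaterally and 2840 CPM contralaterally, against medians of 418 CPM over the ipsilateral and 776 CPM over the contralateral libraries. Fos and Junb, which glia also induce, were higher, by 0.61 ± 0.23 and 0.63 ± 0.15. Fosb, Nptx2 and Dusp1 were not called. The call of Fos was lost without TM1 (adjusted p = 0.0506) or TM2 (adjusted p = 0.0547). In the 3 pairs of batch B alone Fos lay at -0.32 and Junb at 0.08, and neither was called there.

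Genes of axon injury and regrowth rose for 10 of 12, 8 by over 2-fold (median 1.08). Sprr1a, a protein of regrowing axons, was at 4.50 to 16.5 CPM (median 12.7) ipsilaterally and 0 to 0.317 CPM (median 0) contralaterally (7.81 ± 0.27). Atf3, a transcription factor of injured neurons, was at 14.6 to 39.8 CPM (median 28.2) ipsilaterally and 0.131 to 1.52 CPM (median 0.574) contralaterally (5.50 ± 0.21), and the tubulin Tubb6 rose by 3.52 ± 0.10. The growth cone genes Gap43 and Stmn4, which healthy cortical neurons express at high levels, were lower, by 0.14 ± 0.04 and 0.58 ± 0.05.

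Endothelial transcripts rose in both lists that hold them. Of 12 tested endothelial activation genes all 12 rose, 10 by over 2-fold (median 2.54). Selp, the selectin of platelets and activated endothelium, was at 5.90 to 30.5 CPM (median 10.1) ipsilaterally and 0 to 0.267 CPM (median 0) contralaterally (7.69 ± 0.27). Icam1, a leukocyte adhesion molecule, was at 13.9 to 24.2 CPM (median 18.8) ipsilaterally and 2.49 to 4.21 CPM (median 3.20) contralaterally (2.53 ± 0.06, adjusted p = 1.22e-15). Of 15 endothelial and barrier genes 13 rose, 5 by over 2-fold, and none fell (median 0.71). Cldn5, the main tight junction claudin of brain vessels (chromosome 16, 18776847 to 18778262), was at 95.1 to 196 CPM (median 124) ipsilaterally and 29.1 to 69.3 CPM (median 49.99) contralaterally (1.52 ± 0.08, adjusted p = 1.05e-11). Ocln, occludin, was at 11.5 to 17.1 CPM (median 13.1) ipsilaterally and 8.42 to 10.8 CPM (median 9.10) contralaterally (0.60 ± 0.07). Tjp1, a junction scaffold, was at 175 to 224 CPM (median 204) ipsilaterally and 77.1 to 143 CPM (median 129.6) contralaterally (0.70 ± 0.06). All 3 were higher in all 13 pairs without overlap. Pecam1, an adhesion molecule of all endothelium, rose by 2.10 ± 0.09 and the glucose transporter Slc2a1 by 0.85 ± 0.04. The growth factor receptor Flt1 and the anion transporter Slco1a4 were not called, at 0.05 ± 0.04 and -0.01 ± 0.08. Without LM2, Slco1a4 was called, at -0.12 (adjusted p = 0.0227). Of 11 tested mural cell genes (pericytes and smooth muscle) 8 rose and 1 fell (median 0.66). The smooth muscle actin Acta2 rose by 2.10 ± 0.16 and Notch3, a receptor of mural cells, by 0.73 ± 0.05, whereas Myh11, the smooth muscle myosin, was lower by 0.28 ± 0.09.

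Matrix transcripts rose while meningeal transcripts fell. Of 13 fibroblast and scar matrix genes 12 rose, 9 by over 2-fold (median 1.70). Col4a1, a basement membrane collagen, was at 237 to 433 CPM (median 329.6) ipsilaterally and 50.5 to 72.6 CPM (median 62.9) contralaterally (2.48 ± 0.08, adjusted p = 3.44e-14). Col1a1, the collagen of scar tissue, was at 41.2 to 568 CPM (median 83.3) ipsilaterally and 17.96 to 80.1 CPM (median 34.5) contralaterally (1.73 ± 0.29), overlapping between the sides. The highest ipsilateral values were 303, 395 and 568 CPM in SF1, SF2 and SF3, and batch B alone, which holds none of these animals, gave 0.86. Sparc, a matrix protein, rose by 1.70 ± 0.06 and the crosslinking enzyme Loxl2 by 4.59 ± 0.17. Fap, the fibroblast activation protein, was lower by 0.61 ± 0.15 (adjusted p = 0.00131), in all but 3 pairs. In the 3 pairs of batch B alone Fap lay at -0.30 and was not called (adjusted p = 0.446). The list's median pair ratio was 3.10 in SF3 and 0.76 in PM2. Of 12 genes of the meninges, the membranes over the cortex, 11 fell, 9 by over 2-fold, and 1 rose (median -1.22). Ptgds, prostaglandin D synthase, was at 46.5 to 203 CPM (median 123) ipsilaterally and 508 to 924 CPM (median 581) contralaterally (-2.57 ± 0.15, adjusted p = 3.69e-11). Slc22a8, an organic anion transporter, was lower by 1.06 ± 0.07 and the secreted protein Myoc by 2.37 ± 0.21. The summed level of the 12 genes was 114 to 350 CPM ipsilaterally and 624 to 1040 CPM (median 708) contralaterally, without overlap. Ptgds, with its contralateral median of 581 CPM, held most of that sum. Taken singly, 5 of the 12 genes did not overlap between the sides. SF3 had the weakest decrease, a median pair ratio of -0.17, and TM1 the strongest, -2.31. The member that rose was Aebp1, a matrix-associated protein, at 0.32 ± 0.12 (adjusted p = 0.0287) and higher in 8 of 13 pairs. Its call was lost without SF2, SF3, SM2, TF1 or TM2 (adjusted p = 0.0536 to 0.0681) and with LF3 and PF1 kept (0.19), and batch B alone gave -0.18.

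Metalloproteinases and their inhibitors rose for 12 of 12, 10 by over 2-fold (median 2.98). Timp1, an inhibitor, was at 25.6 to 86.9 CPM (median 49.4) ipsilaterally and 1.49 to 3.80 CPM (median 2.24) contralaterally (4.33 ± 0.15), and the membrane protease Adam8 rose by 3.92 ± 0.16. Mmp12, the macrophage elastase, was at 1.57 to 7.61 CPM (median 2.94) ipsilaterally and had 2 counts over all contralateral libraries, a ratio of 371 with an exact 95% counting interval of 102 to 3070. Of 12 proteoglycan and perineuronal net genes 8 rose and 2 fell (median 0.43). Vcan, versican, was at 45.2 to 93.8 CPM (median 53.7) ipsilaterally and 5.34 to 21.05 CPM (median 19.3) contralaterally (1.73 ± 0.12), and Bcan, brevican of the nets around neurons, was at 93.1 to 213 CPM (median 160.3) ipsilaterally and 252 to 379 CPM (median 283) contralaterally (-0.86 ± 0.06). Genes of the transforming growth factor and activin pathway rose for 10 of 12 (median 0.83). Tgfb1, the ligand, rose by 2.47 ± 0.07 and its induced matrix protein Tgfbi by 4.26 ± 0.10, while Fst, the activin antagonist follistatin, was lower by 1.01 ± 0.16. Of 10 insulin-like growth factor genes 6 rose and 3 fell (median 0.60). The binding protein Igfbp2 was at 113 to 409 CPM (median 249) ipsilaterally and 32.8 to 57.3 CPM (median 39.9) contralaterally (2.41 ± 0.11), the growth factor Igf1 rose by 1.10 ± 0.13, and the meningeal growth factor Igf2 was lower by 1.03 ± 0.29 (adjusted p = 0.00368).

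Energy and stress genes showed smaller differences. Of 12 hypoxia and glycolysis genes 8 rose and 4 fell (median 0.26). Hk2, a hexokinase, was at 24.4 to 42.9 CPM (median 32.9) ipsilaterally and 4.12 to 6.33 CPM (median 4.80) contralaterally (2.78 ± 0.08, adjusted p = 4.94e-15), whereas the angiogenic factor Vegfa was lower by 0.54 ± 0.08 and the mitophagy gene Bnip3 by 0.52 ± 0.04. Of 12 endoplasmic reticulum and heat shock genes 7 rose and 3 fell (median 0.28). The chaperone Hspa5 rose by 0.86 ± 0.05 and the cochaperone Dnajb1 fell by 0.53 ± 0.04. Nuclear genes of the respiratory chain fell for 11 of 12, none by over 2-fold (median -0.17). Ndufv1, a subunit of complex I, was at 114 to 153 CPM (median 131) ipsilaterally and 145 to 197 CPM (median 155) contralaterally (-0.27 ± 0.04).

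Steroid receptors were examined because the study concerns sex and steroid hormones. Of 11 tested receptor and enzyme genes 5 rose and 3 fell (median 0.26). Over all genes tested 38.7% rose and 35.2% fell, so these counts lie near the background and are only described. Esr1, the alpha estrogen receptor, was at 3.48 to 8.50 CPM (median 5.54) ipsilaterally and 1.66 to 5.49 CPM (median 3.18) contralaterally, higher in all 13 pairs (0.84 ± 0.13, adjusted p = 1.51e-05). Pgr, the progesterone receptor, was at 21.7 to 39.6 CPM (median 30.5) ipsilaterally and 41.2 to 57.1 CPM (median 54.5) contralaterally (-0.79 ± 0.06, adjusted p = 7.38e-10). It was lower in all 13 pairs without overlap. Esr2, the beta receptor, was too low to test, with 128 counts over the ipsilateral and 60 over the contralateral libraries. Nr3c1, the glucocorticoid receptor, was lower by 0.37 ± 0.06. Tspo, an outer mitochondrial membrane protein of steroid-making cells and of reactive glia, was at 33.4 to 63.8 CPM (median 43.2) ipsilaterally and 2.92 to 5.74 CPM (median 4.07) contralaterally (3.49 ± 0.09), the largest change of the list. Aromatase (Cyp19a1) had 16 ipsilateral and 5 contralateral counts and could not be tested.

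The 12 largest rises among genes with an average of at least 1 on the log2 CPM scale were Clec4d, Arg1, Tgm1, Cd5l, Sprr1a, Slc6a5, Selp, Sele, Lcn2, Ccl2, Lilr4b and Lgals3. Tgm1, a transglutaminase, was at 70.3 to 266 CPM (median 147) ipsilaterally and 0.298 to 1.33 CPM (median 0.573) contralaterally (7.97 ± 0.14, adjusted p = 7.96e-17). Cd5l, a secreted protein of macrophages, was at 11.6 to 77.8 CPM (median 44.4) ipsilaterally and 0 to 0.887 CPM (median 0.127) contralaterally (7.82 ± 0.22). Clec4d, a C-type lectin of myeloid cells, had 1734 ipsilateral and 2 contralateral counts, a ratio of 863 with an exact 95% counting interval of 239 to 7140. The iron-binding lipocalin Lcn2 rose by 6.80 ± 0.20 and the selectin Sele by 7.11 ± 0.30. Lilr4b, an inhibitory receptor of myeloid cells, rose by 6.66 ± 0.21, and a near-identical neighbour gene makes its share of reads uncertain. Slc6a5, the neuronal glycine transporter, was at 2.21 to 64.9 CPM (median 5.40) ipsilaterally and 0 to 0.0691 CPM (median 0.0638) contralaterally (7.75 ± 0.28), highest ipsilaterally in TM2 and next in SF3, at 30.0 CPM. The 12 largest falls were smaller, from -2.58 to -2.11. They were Tcap, Ptgds, Gm15721, Gm43684, Otof, Myoc, Gm12371, Lamp5, Igfn1, Pcsk1, Gucy2g and C730002L08Rik, and all were lower in all 13 pairs without overlap between the sides. Tcap, the titin cap of muscle, was at 0.18 to 2.07 CPM (median 0.706) ipsilaterally and 2.81 to 7.39 CPM (median 4.49) contralaterally. Otof, otoferlin, a calcium sensor of vesicle release, was at 1.26 to 10.6 CPM (median 5.70) ipsilaterally and 16.3 to 40.3 CPM (median 31.5) contralaterally (-2.39 ± 0.13). Pcsk1, a protease that matures neuropeptides, was at 8.77 to 32.4 CPM (median 17.01) ipsilaterally and 44.4 to 112 CPM (median 73.4) contralaterally (-2.14 ± 0.10). Whether the counting used the strand of the reads is not given in the sources used here, so genes that overlap others on the opposite strand cannot be told apart from them.

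The study asks whether the response differs between the sexes. Within the 7 females 11272 genes were called (66.6%), of which 5908 were higher (34.9%) and 5364 lower (31.7%), and within the 6 males 10372 were (61.3%), 5673 higher (33.5%) and 4699 lower (27.8%). The difference of the side effects, females minus males, was called for no gene (0 of 16924, edgeR quasi-likelihood test, Benjamini-Hochberg adjustment), with 997 genes at an unadjusted p under 0.05 and 3 called by DESeq2. The median standard error of this difference was 0.138. The 3 genes, named because DESeq2 called them, were Adamts2, Kmt2a and Tesc. In edgeR, Adamts2, a procollagen protease, had a log2 fold change of 0.96 ± 0.16 in females and -0.19 ± 0.18 in males, a difference of 1.15 (adjusted p = 0.601, against 0.0288 in DESeq2). Gfap had a log2 fold change of 3.87 ± 0.24 in females and 3.84 ± 0.25 in males, a difference of 0.04 ± 0.31 (adjusted p = 0.987). Cldn5 had 1.61 ± 0.11 in females and 1.42 ± 0.11 in males, a difference of 0.18 ± 0.15 (adjusted p = 0.874). For Esr1 the values were 0.65 ± 0.16 in females and 1.08 ± 0.18 in males, a difference of -0.44 ± 0.25 (adjusted p = 0.834), and for Pgr they were -0.74 ± 0.08 in females and -0.85 ± 0.08 in males (difference 0.11 ± 0.11). List medians of females and males were close for reactive astrocytes (4.06 and 4.29), cell cycle (3.82 and 3.56) and synapse (-0.80 and -0.71). They lay farther apart for neutrophils (3.40 and 1.68, 5 tested genes), choroid plexus and ependyma (3.21 and 2.19, 5 tested genes) and meninges (-1.06 and -1.77), with no member called for the difference. The choroid plexus median pair ratios were 4.57, 3.96 and 4.53 in SF1, SF2 and SF3. They were -0.15 to 2.79 in the other females and 0.64 to 2.99 in males. Those of the meninges were -2.11 to -0.17 in females and -2.31 to -1.20 in males. Those of the neutrophil list were 1.85 to 4.32 in females and 0.98 to 3.105 in males. The sexes overlapped in each of these lists. A difference that misses the threshold does not show that the sexes respond alike.

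**Figure D3:**
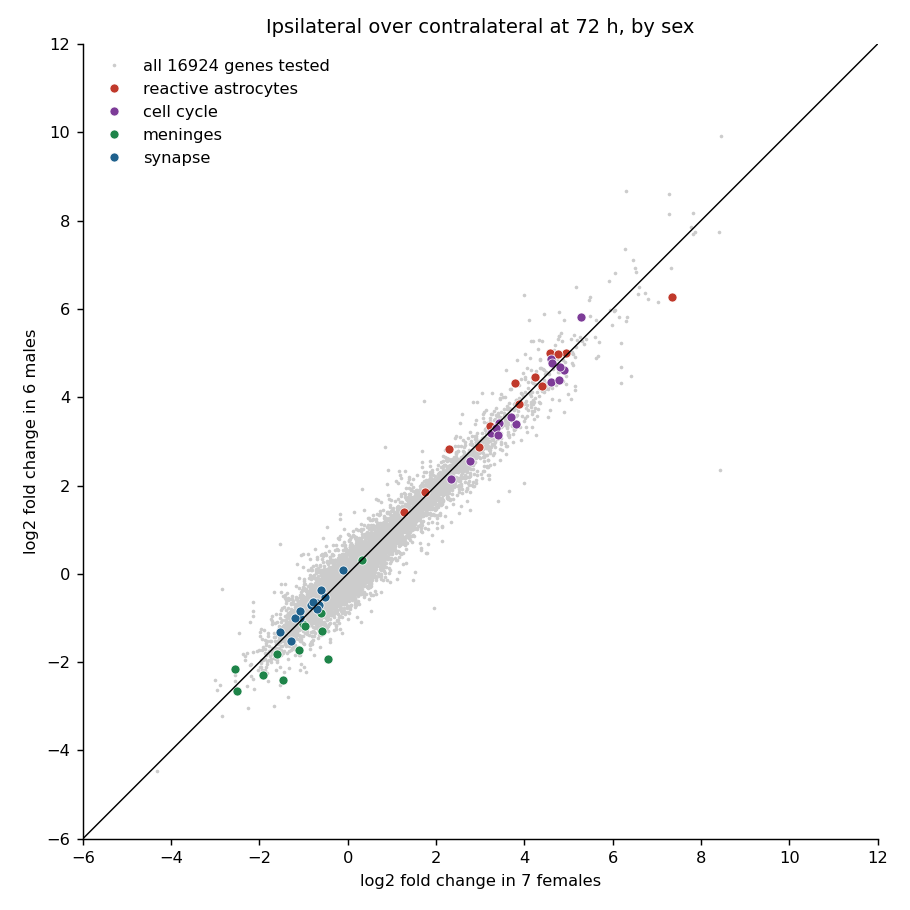
Log2 fold change (ipsilateral over contralateral) in the 7 females (horizontal axis) and the 6 males (vertical axis) at 72 h for the 16924 genes tested, with the members of 4 lists in colour. The diagonal marks equal effects, and edgeR called no gene for a difference between the sexes.

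Batch was examined because the labels put LM2, PF2 and PM2 in batch B and the other 10 animals in batch C. Each pair lies within a batch. The side effect of batch C called 12000 genes (70.9%; 37.2% higher and 33.7% lower) and that of batch B 8529 (50.4%; 28.2% higher and 22.2% lower), and the difference between them was called for 0 of 16924 genes (edgeR quasi-likelihood test), with 1076 at an unadjusted p under 0.05 and 0 called by DESeq2. List medians in batches C and B were 4.13 and 4.13 for reactive astrocytes, 2.40 and 2.30 for lysosome genes and -0.77 and -0.66 for synapse. The interferon list, at 1.85 in C and 3.02 in B, and the myelin list, at 0.65 and 1.19, lay farthest apart among lists with at least 10 tested members. In a fit of batch B alone (3 pairs), the named genes that were no longer called, besides Aebp1, Fos and Sfrp4, which lay below 0 there, were Apoe, C2, Fap, Fibcd1, Gap43, Glul, Insig1, Ist1, Junb, Mrc1, Myh11, Ndufv1, Nr3c1, Ogn, Pvalb, Slc17a7, Tfrc and Vdac2. Fosb, not called over all pairs, was called there at -0.96 (adjusted p = 0.0436). With LF3 and PF1 kept, Slc17a7 lay at -0.17 (adjusted p = 0.0507), Fos at 0.39 and Fibcd1 at 0.80, and none of them was called.

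In naive mice the right and left punches differed for 0 of 18733 genes (0.0%; edgeR quasi-likelihood test, joint fit over the 3 times), with 647 at an unadjusted p under 0.05 and 0 called by DESeq2. Against this background, the side effect at 72 h differed from that of naive mice for 10177 genes (54.3%), 5570 above it (29.7%) and 4607 below it (24.6%). With a side effect for each batch as a further term, the count was 6273 (3980 above and 2293 below). Gfap had a naive side difference of -0.02 ± 0.18, and its 72 h effect exceeded it by 3.88 (adjusted p = 5.50e-17). The corresponding naive values were -0.02 ± 0.09 for Cldn5, -0.24 ± 0.19 for Hmox1 and -0.04 ± 0.07 for Camk2a.

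The 24 h pairs were set beside the 72 h pairs in the same joint fit. There 10111 genes (54.0%) differed between the sides at 24 h, 27.1% higher and 26.9% lower, and 12407 (66.2%) at 72 h, 34.8% higher and 31.4% lower. For 8055 genes (43.0%) the fit gave a side effect at 72 h different from that at 24 h, 4535 above it (24.2%) and 3520 below it (18.8%). Each time has its own animals, and batch C holds 72 h animals alone and batch A only naive and 24 h animals, so time and batch are partly confounded between the times. With a side effect for each batch as a further term, 3978 genes were called for the difference of 72 h and 24 h, 2729 above and 1249 below. Among the lists that stood higher at 72 h than at 24 h, all 15 lysosome genes were above their 24 h effect (median 2.41 at 72 h, 0.65 at 24 h), as were all 12 homeostatic microglia genes (1.15 and -0.37), all 12 oligodendrocyte precursor genes (1.27 and 0.01), 13 of 15 cell cycle genes (3.65 and 1.58), 14 of 15 barrier genes (0.70 and 0.14) and 11 of 14 macrophage genes (4.01 and 2.64). Of the 12 meningeal genes 10 stood above their 24 h effect and 1 below it (-1.23 and -2.68). They include Aebp1, which lay at 0.32 at 72 h and -0.35 ± 0.13 at 24 h. Lists that stood lower at 72 h were synapse (13 of 14, with medians of -0.73 and -0.31), voltage-gated channels (12 of 12, -0.70 and -0.18), activity genes (10 of 12, -0.89 and 0.89) and cholesterol synthesis (15 of 15, -0.05 and 0.85). Cytokines and chemokines had 3 members above and 4 below, with medians of 4.32 at 72 h and 5.15 at 24 h, and neutrophil genes had 2 of 5 below (2.62 and 4.66). At both times these lists hold only the members that passed the low-count filter at 72 h. Members too low at 72 h, among them Il6, Cxcl1, Cxcl2, Cxcr2 and Retnlg, were left out, so the medians do not describe the full lists at 24 h.

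The genes whose effect at 72 h exceeded that at 24 h by the most were Slc6a5, Aplnr, Ttr, Parpbp, Htr2b, Ccnb1, Hmmr and Gpnmb. Aplnr, the apelin receptor of sprouting endothelium, was at 16.3 to 65.8 CPM (median 28.6) ipsilaterally and 0.0638 to 2.00 CPM (median 0.76) contralaterally at 72 h (5.30 ± 0.21), with a 24 h effect of 0.32 ± 0.28, a difference of 5.00 ± 0.38 (adjusted p = 9.55e-15). Gpnmb, a glycoprotein of lipid-laden phagocytes, was at 67.1 to 389.6 CPM (median 175) ipsilaterally and 1.37 to 6.40 CPM (median 2.31) contralaterally (6.01 ± 0.23), with a 24 h effect of 2.01 ± 0.21, a difference of 4.00 ± 0.32 (adjusted p = 2.59e-14). The mitotic genes Ccnb1 and Hmmr and the repair gene Parpbp differed by 3.36 ± 0.58, 3.60 ± 0.34 and 3.22 ± 0.36, and the serotonin receptor Htr2b by 3.36 ± 0.57. Slc6a5 differed by 4.90 ± 1.42 (adjusted p = 0.00444) and Ttr, transthyretin of the choroid plexus, by 4.25 ± 1.02 (adjusted p = 0.000635). With side by batch terms neither of these was called, at 4.68 for Slc6a5 (adjusted p = 0.0645) and 2.07 for Ttr (adjusted p = 0.312). The effects furthest below those at 24 h were those of Fosb, Nptx2, Egr3, 1700016P03Rik, Bdnf, Gpr3, Igfn1 and Egr4. Fosb, an immediate early factor, had -0.28 ± 0.33 at 72 h and 2.63 ± 0.28 at 24 h, a difference of -2.91 ± 0.41 (adjusted p = 8.73e-08). Nptx2, a pentraxin of excitatory synapses, had -0.14 ± 0.23 at 72 h and 2.54 ± 0.21 at 24 h, a difference of -2.68 ± 0.30 (adjusted p = 4.31e-10). Bdnf, the neurotrophin, was at 5.61 to 39.5 CPM (median 12.6) ipsilaterally and 19.03 to 37.5 CPM (median 28.1) contralaterally at 72 h (-1.01 ± 0.18), with a 24 h effect of 1.04 ± 0.14 and a difference of -2.05 ± 0.21. Egr3, Egr4, Gpr3, Igfn1 and 1700016P03Rik differed by -2.42 ± 0.21, -2.02 ± 0.34, -2.03 ± 0.22, -2.02 ± 0.19 and -2.37 ± 0.34.

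**Figure D4:**
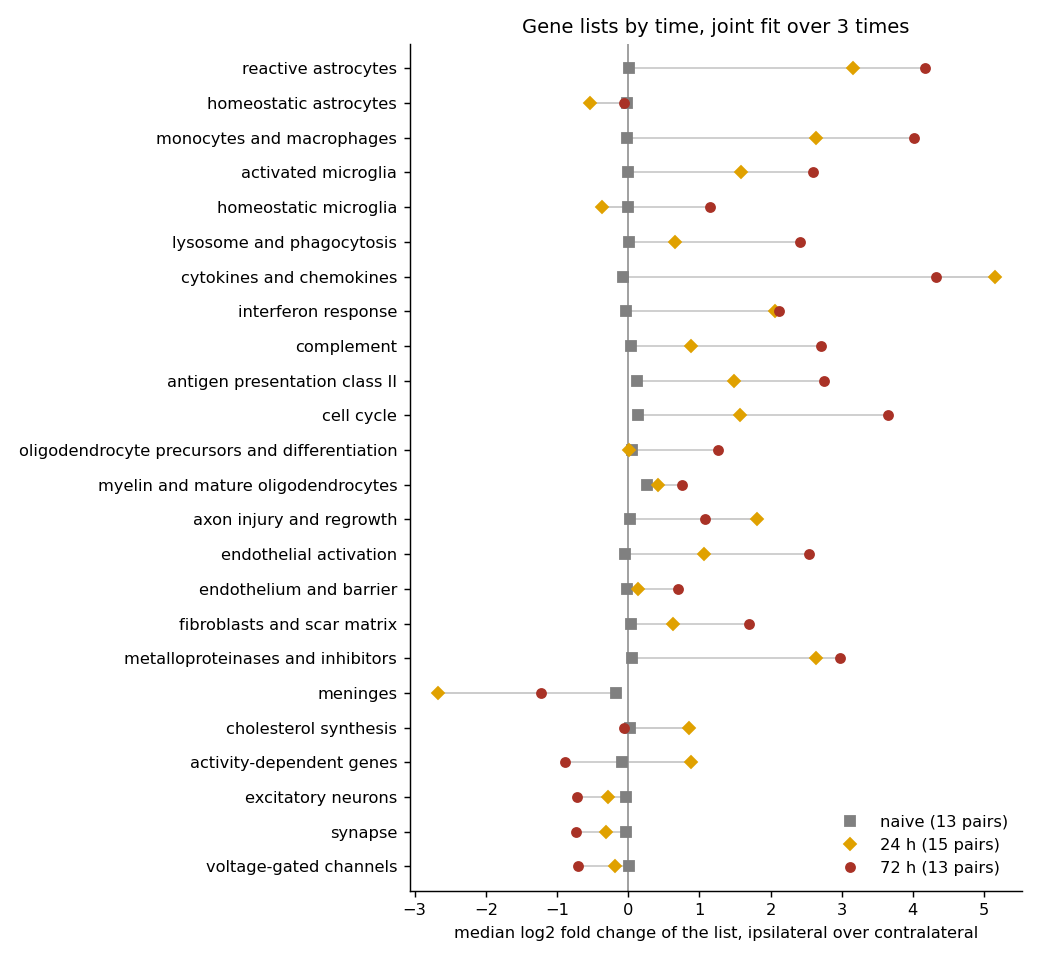
Median log2 fold change (ipsilateral over contralateral) of 24 gene lists in naive mice (13 pairs), at 24 h (15 pairs) and at 72 h (13 pairs), from the joint fit. Each list holds only the members that passed the low-count filter at 72 h. Naive medians lie between -0.17 and 0.26, lysosome and oligodendrocyte precursor genes are higher at 72 h than at 24 h, and activity and cholesterol synthesis genes are lower.

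The pairs differed in the size of the response. The share of the 12505 called genes that an animal's own pair ratio followed in direction was 88.8% (TM2) to 97.6% (SM1). These genes were called on the same 13 pairs, so the shares only set the animals beside each other. Set against the mean of the other pairs, the slope of an animal's ratios was highest in SF3, at 1.26, and lowest in TF3, at 0.82. Among called genes with an average of at least 3 on the log2 CPM scale, the pair ratio varied least for Vdac2, Specc1l, Slc35b4, Mprip, Appbp2, Setd3, Psmd2 and Ist1, whose standard deviations between pairs were 0.04 to 0.06. Without LM2, Vdac2, a mitochondrial channel protein, was not called, at 0.03 in place of 0.07 ± 0.03. Psmd2, a proteasome subunit, was at 265 to 306 CPM (median 282) ipsilaterally and 228 to 255 CPM (median 233) contralaterally, and its pair ratios ran from 0.14 to 0.34 (0.26 ± 0.03). The ratio varied most for Ttr, Npas4, Fibcd1, Ogn, Sfrp4, H19, Thbs4 and Pf4. Ttr was at 0.31 to 746 CPM (median 8.23) ipsilaterally and 0.196 to 2.76 CPM (median 0.537) contralaterally, with pair ratios from -0.15 to 10.64, over 9 in SF1, SF2 and SF3 and under 5 in the other animals. DESeq2 gave a log2 fold change of 3.53 for Ttr in place of 6.06 ± 0.98, and the 3 pairs of batch B alone gave 2.69. Npas4, an activity-dependent factor, was at 2.65 to 232 CPM (median 5.19) ipsilaterally and 12.6 to 56.3 CPM (median 20.8) contralaterally, with pair ratios from -3.25 to 2.04 (-1.56 ± 0.41, adjusted p = 0.00241). Thbs4, a matrix protein of reactive astrocytes, was at 1.04 to 60.4 CPM (median 20.7) ipsilaterally and 0.723 to 4.53 CPM (median 2.34) contralaterally, with pair ratios from -0.55 to 4.43. Pf4, a chemokine of platelets and macrophages, had pair ratios from 1.58 to 5.51, and Ogn, a proteoglycan of the meninges, from -2.74 to 0.91. Fibcd1, a lectin-like receptor of the hippocampus, was higher in 8 of 13 pairs (1.03 ± 0.40, adjusted p = 0.0265), and Sfrp4, a Wnt antagonist, in 10 (0.83 ± 0.35, adjusted p = 0.0384). The call of Fibcd1 was lost without any of PF2, PM2, SF1, SF2, SM1, SM2, TF3 or TM1, and that of Sfrp4 without any of LM2, SF1, SF2, SF3, TF1 or TM2. In batch B alone Sfrp4 lay at -0.20.

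**Figure D5:**
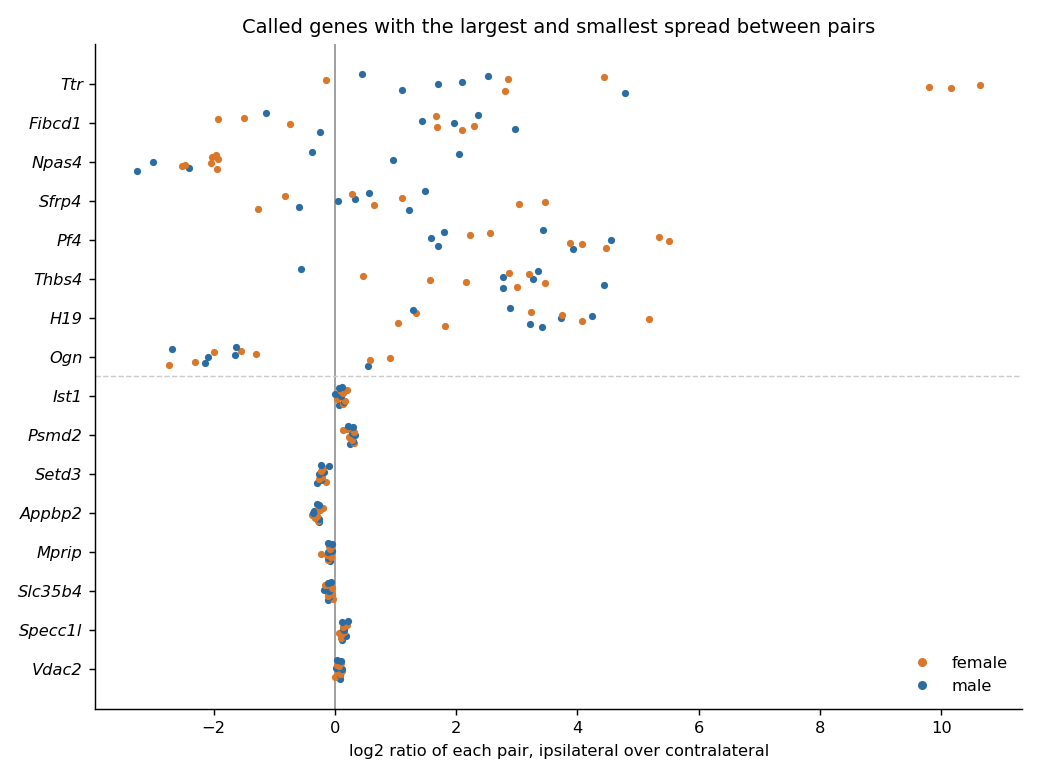
Log2 ratio (ipsilateral over contralateral) of each of the 13 pairs for the 8 called genes with the largest and the 8 with the smallest spread between pairs. Points are animals (orange females, blue males). Ttr runs from -0.15 to 10.64, while the 8 genes of small spread lie between -0.37 and 0.34.

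Transcripts listed for choroid plexus and for deeper brain regions were also mostly higher in injured punches, those of choroid plexus unevenly between animals. Of 9 listed choroid plexus and ependyma genes 5 passed the filter (median 3.00), and the summed level of all 9 was 16.4 to 909 CPM ipsilaterally, highest in SF1, against 5.71 to 13.8 CPM contralaterally. Foxj1, a factor of ciliated ependyma, was at 6.31 to 26.7 CPM (median 18.2) ipsilaterally and 2.22 to 4.66 CPM (median 2.74) contralaterally (2.38 ± 0.17). Genes that mark hippocampus, striatum and thalamus rose for 10 of 12 (median 0.88), with Prkcd, abundant in thalamus, at 29.05 to 53.7 CPM (median 41.4) ipsilaterally and 8.88 to 12.3 CPM (median 10.6) contralaterally (1.94 ± 0.09), while Calb1, a calcium buffer of hippocampal, striatal and cortical neurons, was at 39.8 to 103 CPM (median 57.5) ipsilaterally and 115 to 173 CPM (median 137) contralaterally (-1.24 ± 0.09), lower in all 13 pairs. The striatal receptor Drd1 was not called (0.16 ± 0.13). The median pair ratio of this list ran from 0.52 in TF1 to 1.23 in TM1, against -0.15 in TF1 to 4.57 in SF1 for choroid plexus and ependyma. Whether the rises of this list came from neighbouring tissue or from cells of the cortex was not tested. The summed level of those 12 genes was 493 to 837 CPM ipsilaterally and 336 to 466 CPM contralaterally. A set of 12 transcripts of the pineal gland and photoreceptors, chosen after the values were seen and therefore only described, summed to 577 CPM in the ipsilateral library of SF3, to 14.3 to 297 CPM in the other ipsilateral libraries (median 17.5) and to 11.6 to 18.7 CPM contralaterally. Of 3 tested skeletal muscle genes 2 fell, led by Acta1 at -1.06 ± 0.12, and the 8 listed genes summed to 8.18 to 15.3 CPM ipsilaterally and 13.8 to 20.3 CPM contralaterally. The part of neighbouring tissue in the other results was not tested.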

How the data were processed

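Polyadenylated RNA of cortical punches was sequenced by the authors, who deposited raw counts of each gene in each library. Reads were aligned to mm10 with HISAT2 2.0.5, as the submitters' processing notes name them. Which program and annotation counted them, and whether by strand, is not given in the sources used here. Of 54532 gene identifiers, 54495 were matched to GENCODE M21 (GRCm38), and the 37 others held at most 0.0216% of a library's counts.

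The 88 columns were mapped to samples by animal code. Counts were tested with edgeR 4.0.16 (R 4.3.3, limma 3.58.1): filterByExpr by side, TMM scaling, glmQLFit and glmQLFTest with the animal as a block, two-sided, Benjamini-Hochberg adjustment over all genes tested, called at an adjusted p under 0.05. Sex and batch entered as interactions with side, and naive, 24 h and 72 h pairs entered a joint fit. CPM uses TMM-scaled totals, and pair ratios add a prior count of 2. The code was tested on simulated counts. The labels pair the punches by animal. Deviations from the side means correlated within an animal (median r = 0.326, lowest 0.091), against a median of -0.021 between animals, and in 9 of 13 animals the ipsilateral punch correlated best with its own partner.

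Genes named are the 12 largest changes each way, the 3 members with the smallest p in each list and members moving against their list, the extremes of the time comparisons and of the spread between pairs, and 8 fixed genes. Some of these are not reported here. Further list members were named after their values were seen. The members and lists were chosen with earlier results of these data known. Alternatives were DESeq2 1.42.0 and its size factors, no low-count filter, no block, each pair left out, LF3 and PF1 kept, each batch alone, a 1.5-fold threshold, batch-specific side effects, and, chosen after seeing the data, LM2 and SF3 left out together. Promoter windows are RefSeq's (GRCm38.p6). Precision rests on 13 pairs and on 15063379 to 24731022 counts per library, and counting intervals and floors cover counting error only.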

Additional observations from a re-analysis of the deposited data

Results flagged for a closer look

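The pair ratios of 196 genes were examined in the 7 females and in the 6 males. In 27 of these groups the highest or lowest animal's gap to its nearest neighbour, as a share of the range of its sex, was above Dixon's 95% critical value. Chance alone flags about 1 in 20 groups under this criterion. Some of the genes were chosen for their spread between pairs and the groups share animals, so no excess is read from the count. TM2 was the animal in 9 of them. Its log2 ratio was -0.30 for Mag, against 1.22 in the nearest male, -1.09 for Mobp, against 0.69, and 0.26 for Cldn11, against 1.45, all genes of myelin. It was -0.55 for Thbs4, against 2.77, 8.45 for Slc6a5, against 5.34, 4.40 for Tnf, against 3.44, -0.88 for Bnip3, against -0.55, -0.56 for Kcna1, against -0.14, and 2.56 for Icam1, against 2.46. The gap for Icam1 is small in size and stands out because the other males lie close together.

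LM2 stood apart in 5 genes, with ratios of 0.70 for Tfrc, against -0.36 in the nearest male, 1.42 for Tjp1, against 0.75, 3.10 for Vcan, against 1.88, 0.56 for Ogn, against -1.63, and 2.10 for B2m, against 1.53. Its contralateral library is the one that stands farthest from its side, with long transcripts low. The part of that library in these values was not tested. PM2 had -0.30 for Dnajb1, against -0.54.

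Among females, SF3 had 7.96 for Slc6a5, against 5.64 in the nearest female, -1.52 for Camk2a, against -1.06, and 0.061 for Vegfa, against -0.42. TF2 had -0.65 for Egr3, against -2.00, 0.55 for Nptx2, against -0.51, 0.65 for Kcna1, against 0.003, and -0.11 for Tfrc, against -0.50. TF3 had 4.96 for Lcn2, against 6.53, 1.74 for Trem2, against 2.28, -1.18 for Nr4a1, against -1.78, and 0.04 for Insig1, against -0.35. SF2 had 3.76 for C5ar1, against 4.47.

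The side effect differed between 72 h and 24 h (72 h minus 24 h, edgeR quasi-likelihood test of the difference) by 5.00 for Aplnr, 4.90 for Slc6a5, 4.25 for Ttr, 4.00 for Gpnmb, 3.60 for Hmmr, 3.36 for Ccnb1, 3.36 for Htr2b and 3.22 for Parpbp. It differed by -2.91 for Fosb, -2.68 for Nptx2, -2.42 for Egr3, -2.37 for 1700016P03Rik, -2.05 for Bdnf, -2.03 for Gpr3, -2.02 for Igfn1 and -2.02 for Egr4. Time and batch are partly confounded in this comparison. With side by batch terms Slc6a5 (4.68) and Ttr (2.07) were not called, and DESeq2 gave 2.04 for Ttr.

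The 3 animals left out at 72 h also had far more Gfap in the injured punch than any naive animal had between its sides. The log2 ratio was 3.05 in LF3, 3.56 in PF1 and 3.84 in PM1, against -1.12 to 0.68 in naive animals.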

How the results depend on the processing

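Leaving out each pair in turn called 6252 to 6530 genes higher and 5769 to 6622 lower at 72 h. The counts were 5583 to 5987 higher and 4907 to 6130 lower in females, and 5303 to 5668 higher and 4175 to 5235 lower in males. No gene was called for the differences between sexes or batches in these fits. The joint fit was repeated without LM2 and without SF3 and gave 5407 to 5442 genes above and 4411 to 4648 below naive, and 4284 to 4386 above and 3213 to 3560 below 24 h, with no gene called for naive sides. The joint fits without each of the other pairs were not run. A 1.5-fold threshold left 2852 higher and 1091 lower at 72 h, and batch B alone (3 pairs) 3794 and 2545. DESeq2 size factors gave 6287 higher and 6335 lower at 72 h, and the DESeq2 test 6209 and 6231. The fit without LM2 gave 6252 and 6622. In these fits more genes were lower than higher, the reverse of the main fit. Without the low-count filter the sex difference called 21 higher and 12 lower, and naive sides 11 and 4. DESeq2 called 2 higher and 1 lower for the sex difference. With side by batch terms the counts were 2293 below naive, and 2729 above and 1249 below 24 h.

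The fit without the animal block called 6503 higher and 5867 lower. Without the block the pairing lost the calls of Fos (0.60, adjusted p = 0.133) and Npas4 (-0.90, adjusted p = 0.137) among the 196 genes followed. Of these genes 156 kept direction and call under every alternative run. Reversed values were those of Aebp1 (-0.18), Fos (-0.32) and Sfrp4 (-0.20) in batch B alone. The cause was not tested. The medians of the homeostatic astrocyte, cholesterol synthesis and lymphocyte lists changed sign under at least 1 alternative. Most neutrophil and lymphocyte genes had too few counts to test at this depth.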
